A study of Homo sapiens with 4 samples.

Results

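S100 proteins are small calcium-binding proteins made of a pair of EF-hand helix-loop-helix motifs, and most act as dimers that expose a binding surface for other proteins when calcium rises. Inside cells they bind annexins, cytoskeletal proteins and p53, and some are also released and bind surface receptors such as AGER (RAGE). Most of their genes lie side by side on the long arm of chromosome 1, and several are raised in carcinomas of the liver and bile ducts. The S100 genes described here are S100A2, S100A4, S100A6, S100A9, S100A10, S100A11, S100A13, S100A14, S100A16 and S100P, 10 of the 58174 genes in the deposited table, chosen by name. The table lists 11 further S100 genes, which are given beside them.

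RNA was sequenced from 2 established human liver cancer lines, LM3, labelled as hepatocellular carcinoma, and RBE, labelled as intrahepatic cholangiocarcinoma. Each line was transfected by lipofection with si-FENDRR, which targets the long noncoding transcript FENDRR, or with the negative control si-NC, and RNA was taken after 48 h. The 4 libraries are thus LM3 with si-FENDRR, LM3 with si-NC, RBE with si-FENDRR and RBE with si-NC, with 1 library in each group. Both transfections of a line used the same medium and reagent, each group is 1 library of 1 line, and the labels name no untransfected cells.

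Values are FPKM, fragments per kilobase of gene and scaled to the mapped fragments of a library, so levels of different genes can be set side by side as far as the authors' gene lengths allow. The files hold no counts, and 13437 to 13682 genes per library reached 1 FPKM. FENDRR was listed at 0 in all 4 libraries, so the knockdown could not be checked and libraries are compared by their labels. Of the hepatocyte markers, ALB was at 35.7 and 33.3 FPKM in LM3, against 0.251 and 0.270 FPKM in RBE. The biliary keratin KRT7 was at 7.21 and 6.02 FPKM in LM3, against 429 and 391 FPKM in RBE. Of the 9 hepatocyte markers tested, 6 were called higher in LM3 and 2 in RBE by the limma test described below. Of the 11 biliary markers tested, 1 was called higher in LM3 and 7 in RBE. Over all genes tested the shares were 32.3% and 26.4%. SERPINA1, another hepatocyte marker, ran against ALB, at 0.0957 and 0.0892 FPKM in LM3 against 56.8 and 82.5 FPKM in RBE. ALB, SERPINA1 and some others of both lists reached 1 FPKM in 1 line alone, so the filter described below favoured their calls. SPP1 was the biliary marker called higher in LM3, at 1118 and 909 FPKM against 515 and 504 FPKM in RBE.

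Short stretches before the RefSeq transcription starts are shown for 6 of the genes. They are the 4 genes with a TATAAA match, which include S100P and S100A4 with the widest gaps between the lines and S100A9 with no signal, and S100A6 and S100A16 for comparison, as genes without it that were higher in LM3 and in RBE. Each covers positions -40 to -11, counted back from the start, on the coding strand of GRCh38.p14, and capitals mark TATAAA or, in S100A16, CCAAT read on the opposite strand.
S100P, chr4:6693838-6693867, plus strand: atgaggctgcctTATAAAgcaccaagaggc
S100A4, chr1:153545817-153545846, minus strand: tggctggggTATAAAtaggtcagacctctg
S100A9, chr1:153357814-153357843, plus strand: caggagctgccTATAAAtgccgagcctgca
S100A13, chr1:153627516-153627545, minus strand: tccccgctgctTATAAAcctcagccctgag
S100A6, chr1:153536002-153536031, minus strand: caccgaccgctataaggccagtcggactgc
S100A16, chr1:153609366-153609395, minus strand: gggcgagagtgATTGGcaggctggctggag
All 10 genes matched the RefSeq promoter table, with 14 starts in all. TATAAA, searched on both strands in the 250 bases before each start, was present at 4 of the 14 starts (28.6%), against 10.7% of all 35116 promoters of that length. These were the starts of S100P, S100A4 and S100A9 and 1 of the 3 starts of S100A13, the one shown. In the shown 30 bases it is present in 2.97% of all promoters. GGGCGG was found at 6 of the 14 starts (42.9%), near the 42.6% of all promoters, and S100A6 had 3 copies. CCAAT was found at 2 of the 14, 1 each of S100A13 and S100A16 (32.0% of all promoters), TGANTCA at 1, of S100A2 (6.57%), and TTCNNNGAA at 0 (6.57%). S100A6 and S100A10 each had 24 CG pairs before the start, and the median promoter had 11. S100A11 had 15, S100A4 had 7, and S100P, S100A9 and S100A14 had 4 each. The starts of S100A13 had 8, 10 and 15, and those of S100A2 had 3 and 4. S100A16 had 1 and 6 at its starts, the one shown being that with 6. These are matches of letters in a window and do not show binding. Only exact letters were counted, so tataag, present in the shown stretch of S100A6 and at the same positions of S100A14, was no match. S100P and S100A9 both carry the TATAAA match, S100P being abundant in LM3 and S100A9 at 0 there.

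S100 transcripts made up more of the total FPKM in LM3 than in RBE. As FPKM is scaled to gene length, this is not a share of RNA mass or of reads. The summed level of all 21 listed S100 genes was 6705 FPKM (si-FENDRR) and 6534 FPKM (si-NC) in LM3, against 2185 FPKM (si-FENDRR) and 2263 FPKM (si-NC) in RBE. That is 1.35% and 1.35% of the total FPKM of the LM3 libraries and 0.441% and 0.445% of those of RBE. The 10 named genes held 98.2% to 98.6% of the S100 sum in every library. In these bulk samples, fewer cells that make a transcript and less of it per cell cannot be told apart.

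**Figure D1:**
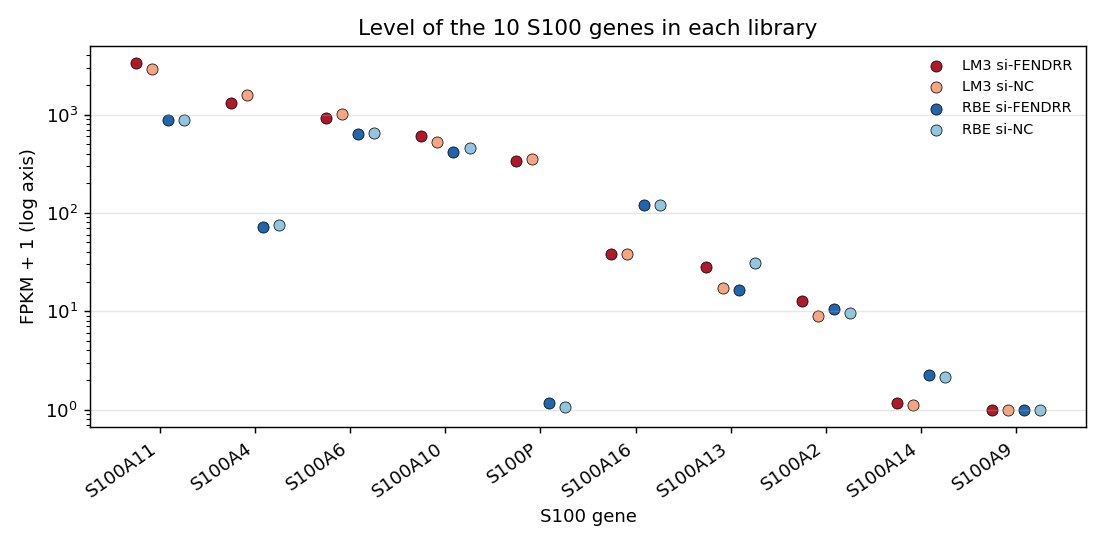
FPKM + 1 on a log axis for the 10 S100 genes, with 1 point per library. S100P and S100A4 stand far higher in LM3, S100A16 and S100A14 higher in RBE, and S100A9 is at 0 in all 4 libraries.

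Both libraries of a line ranked the genes alike, and no neighbours in the order overlapped in level within either line. In LM3 the order from the top was S100A11, S100A4, S100A6, S100A10, S100P, S100A16, S100A13, S100A2 and S100A14. In RBE it was S100A11, S100A6, S100A10, S100A16, S100A4, S100A13, S100A2, S100A14 and S100P. S100A4 thus took place 2 in LM3 and place 5 in RBE, and S100P place 5 and place 9.

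S100A11, S100A10 and S100A6 were abundant in both lines. S100A11, a partner of annexin A1 with a role in membrane repair, was at 3327 (si-FENDRR) and 2922 FPKM (si-NC) in LM3, against 872 (si-FENDRR) and 889 FPKM (si-NC) in RBE. It was the most abundant S100 transcript in all 4 libraries, ranking 11 and 12 among all listed genes in LM3 and 71 and 72 in RBE. Its share of the S100 sum was 49.6% and 44.7% in LM3 and 39.9% and 39.3% in RBE.

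S100A4 took 19.8% and 24.0% of the S100 sum in LM3, against 3.26% and 3.25% in RBE. S100A6 took 13.9% and 15.6% in LM3 and 29.3% and 28.8% in RBE, and S100A10 took 9.02% and 8.03% in LM3 and 19.2% and 20.3% in RBE. S100A16 took 0.559% and 0.567% in LM3, against 5.43% and 5.22% in RBE. The S100 pool of RBE therefore held mainly S100A11, S100A6 and S100A10, and that of LM3 held S100A4 as its next largest part after S100A11.

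**Figure D2:**
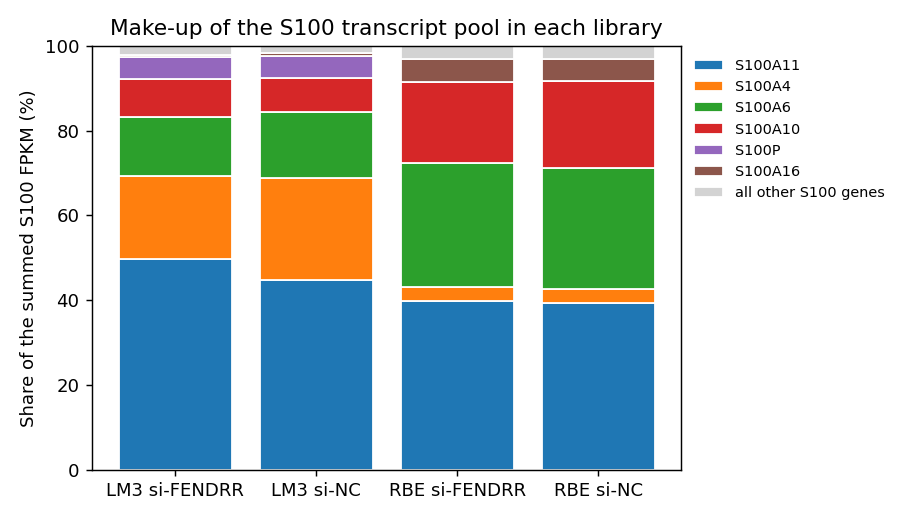
Share of the summed S100 FPKM taken by each gene, with 1 bar per library. S100A11 takes the largest part in every bar, and S100A4 takes 19.8% and 24.0% of the LM3 bars against 3.26% and 3.25% of the RBE bars.

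The difference between the lines was tested with limma on log2(FPKM + 1) over 15930 genes with at least 1 FPKM in any library, with terms for line and transfection. Of the 10 genes, 9 passed that filter and S100A9 did not. S100P and S100A14 passed it through 1 line alone, LM3 for S100P and RBE for S100A14. Between the lines 6 of the 9 were called at an adjusted p of 0.05, where 58.7% of all genes tested were called, so the share is near that of the background. Both libraries of one line lay above both of the other for 7 of the 9 (81.7% of all genes tested). With si-FENDRR alone 4 of the 9 differed at least 2-fold between the lines (32.5% of all genes tested) and 6 at least 1.5-fold (55.1%), and with si-NC alone 4 (32.8%) and 7 (55.3%). S100A11, S100A4, S100A6 and S100P were higher in LM3 (32.3% of all genes tested), and S100A14 and S100A16 were higher in RBE (26.4%). The median log2 difference was 0.36 over the 9 genes and 0.09 over all genes tested. The libraries within a line had different transfections and the fit has 1 residual degree of freedom. These p-values therefore measure only the spread between these libraries, which may be technical. The SE and p of each gene also draw on a prior variance over all genes tested (2.89 prior degrees of freedom). An SE given here is thus not the spread of that gene's libraries alone.

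S100P, first known from placenta and a ligand of the membrane linker ezrin and of AGER, showed the widest gap. It was at 337 (si-FENDRR) and 350.1 FPKM (si-NC) in LM3, against 0.163 (si-FENDRR) and 0.0666 FPKM (si-NC) in RBE. Both LM3 libraries stood far above both RBE libraries, and RBE was close to no signal (limma log2 difference of 8.27 ± 0.12 SE over 2 libraries per line, with an adjusted p of 0.000584). S100P (ENSG00000163993) lies apart from the other genes, on chromosome 4 from 6693069 to 6697170 on the plus strand of hg38, and shares no exon with another listed gene. Of the 10 other genes listed within 100 kb of it, 7 reached 1 FPKM, and the coding ones among them were on in both lines. MRFAP1 was the most abundant, at 45.3 and 44.5 FPKM in LM3 against 20.4 and 17.4 FPKM in RBE. MRFAP1L1, at 18.5 and 17.9 FPKM in LM3 against 24.4 and 19.2 FPKM in RBE, did not share the gap of S100P either. Below 1 FPKM, AC093323.4 was at 0.395 and 0.0396 FPKM in LM3 and AC093323.2 at 0.158 and 0.558 FPKM. Both were listed at 0 in RBE. AC093323.5 ran the other way, at 0 in LM3 and at 0.0452 FPKM in RBE with si-NC.

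S100A4, also called metastasin, binds the heavy chain of nonmuscle myosin IIA. It was at 1324 (si-FENDRR) and 1570 FPKM (si-NC) in LM3, against 71.2 (si-FENDRR) and 73.5 FPKM (si-NC) in RBE. Mean levels were 20.0-fold apart, and the lines did not overlap (limma log2 difference of 4.30 ± 0.11 SE over 2 libraries per line, with an adjusted p of 0.000584). S100A4 (ENSG00000196154) spans 153543613 to 153550136 on the minus strand of chromosome 1. S100A3, a gene known from the hair cuticle, lies inside that span on the same strand, with no exon in common. S100A3 was at 101 (si-FENDRR) and 88.2 FPKM (si-NC) in LM3, against 36.2 (si-FENDRR) and 28.7 FPKM (si-NC) in RBE, and it too was called (limma log2 difference of 1.52 ± 0.11 SE and adjusted p of 0.00217). How the authors assigned reads in the shared span was not given in the sources used here.

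For S100A11 (ENSG00000163191, chromosome 1, 152032506 to 152047907, minus strand) mean levels were 3.55-fold higher in LM3, with no overlap between the lines (limma log2 difference of 1.82 ± 0.11 SE over 2 libraries per line, with an adjusted p of 0.00154). S100A6, or calcyclin, a partner of the ubiquitin ligase adaptor CACYBP, lies on chromosome 1 at 153534599 to 153536244, minus strand. It was at 932 (si-FENDRR) and 1016 FPKM (si-NC) in LM3, against 639 (si-FENDRR) and 651 FPKM (si-NC) in RBE. Mean levels of S100A6 were 1.51-fold apart (limma log2 difference of 0.59 ± 0.10 SE and adjusted p of 0.0113). The limma call of S100A6 was lost with no filter on low values (adjusted p = 0.0606). It was also lost in fits of 3 libraries, which have no transfection term, without the RBE library of si-FENDRR (log2 difference 0.58, adjusted p = 0.0809) or that of si-NC (0.61, adjusted p = 0.0774). In those fits the lone RBE library is assumed to vary like the LM3 ones.

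S100A10, or p11, is the S100 protein that no longer needs calcium and forms a complex with annexin A2 that binds plasminogen at the cell surface. It was at 605 (si-FENDRR) and 525 FPKM (si-NC) in LM3, against 419 (si-FENDRR) and 459.9 FPKM (si-NC) in RBE. Both LM3 libraries were above both RBE libraries, but S100A10 did not pass (limma log2 difference of 0.36 ± 0.13 SE and adjusted p of 0.0770). S100A10 (ENSG00000197747) lies at 151982915 to 151994390 on chromosome 1, minus strand.

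S100A16 and S100A14, neighbouring genes of epithelial cells, were the ones higher in RBE. S100A16 was at 37.5 (si-FENDRR) and 37.0 FPKM (si-NC) in LM3, against 119 (si-FENDRR) and 118 FPKM (si-NC) in RBE. Both transfections gave nearly the same value within each line, and mean levels in RBE were 3.18-fold those in LM3 (log2 difference, LM3 minus RBE, -1.64 ± 0.10 SE, n = 2 libraries per line, adjusted p = 0.0018 by limma). S100A14 was weak, at 0.165 (si-FENDRR) and 0.124 FPKM (si-NC) in LM3, against 1.23 (si-FENDRR) and 1.14 FPKM (si-NC) in RBE (limma log2 difference of -0.93 ± 0.15 SE and adjusted p of 0.0111). The genes lie at 153606886 to 153613145 (S100A16) and 153614255 to 153616986 (S100A14), both on the minus strand. Although adjacent, they differed widely in level within each line.

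S100A2, an epithelial S100 protein found in the nucleus that binds p53, did not differ detectably between the lines. It was at 11.7 (si-FENDRR) and 7.93 FPKM (si-NC) in LM3, against 9.49 (si-FENDRR) and 8.70 FPKM (si-NC) in RBE, and the 2 LM3 values enclosed those of RBE. The log2 difference was 0.08 ± 0.16 SE (adjusted p = 0.678 by limma), and its sign turned to -0.01 with median-of-ratios scaling and -0.18 without the LM3 library of si-FENDRR, again with no transfection term. The S100A2 gene lies at 153561108 to 153567890 on chromosome 1, minus strand.

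S100A9, which pairs with S100A8 as calprotectin in neutrophils and monocytes, was listed at 0 in all 4 libraries. S100A8 and S100A12, the other S100 proteins of myeloid cells, were at 0 as well. Of 8 myeloid markers, PTPRC, the pan-leukocyte antigen, was at 0 in LM3, against 0.130 and 0.0862 FPKM in RBE, CD14 reached at most 0.196 FPKM, CSF1R at most 0.0635 FPKM and FCGR3A was at 0 throughout. CD163 was at 0.690 and 0.457 FPKM in LM3 and listed at 0 in RBE. ITGAM, which encodes CD11b, was at 8.75 and 5.21 FPKM in LM3 against 1.40 and 1.64 FPKM in RBE (adjusted p = 0.00865 by limma). Of the 3 myeloid markers tested, CD68 and ITGAM were called higher in LM3 and LYZ in RBE (32.3% and 26.4% of all genes tested). LYZ, at 0.128 and 0 FPKM in LM3 against 12.7 and 12.5 FPKM in RBE, passed the filter only through RBE. The myeloid markers summed to 69.8 and 68.1 FPKM in LM3 and 28.6 and 28.2 FPKM in RBE, mostly from CD68 in LM3 and from CD68 and LYZ in RBE. The RNA came from established cancer lines and the labels name no myeloid cells in them, and the source of these marker transcripts was not tested. Fibroblast markers, relevant because S100A4 also marks fibroblasts, summed to 30.4 and 27.1 FPKM in LM3 and to 5.35 and 4.19 FPKM in RBE. Within that list LUM was at 28.4 and 24.9 FPKM in LM3 and listed at 0 in RBE, and COL3A1 was at 1.75 and 1.95 FPKM in LM3 against 0.0450 and 0.00830 FPKM in RBE. COL1A1 ran the other way, at 0.0632 and 0.0130 FPKM in LM3 against 2.94 and 2.45 FPKM in RBE, as did PDGFRB, at 0 and 0.0215 FPKM against 1.98 and 1.40 FPKM. Of the 4 fibroblast markers tested, LUM and COL3A1 were thus called higher in LM3 and COL1A1 and PDGFRB in RBE (32.3% and 26.4% of all genes tested). Each of the 4 passed the filter only through the line where it was high, which favoured a call, so their count cannot be weighed against those shares. COL1A2 was at 0 in LM3, and DCN was at 0.153 FPKM in both LM3 libraries and at 0 in RBE. The labels name no fibroblasts in these lines either, and any link of these markers to the level of S100A4 was not tested. Squamous markers, which would accompany S100A2 in stratified epithelium, were at 0 in all libraries for 4 of 5, with TP63 at 0.541 and 0.306 FPKM in LM3 and 0 and 0.00937 FPKM in RBE.

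Of the 11 further S100 genes, 6 were at 0 in all libraries, namely S100A7A, S100A7L2, S100A8, S100A12, S100B and S100G. S100A7, at 0.527 FPKM in RBE with si-NC and at 0 elsewhere, and S100Z stayed below 1 FPKM. S100A5, known from olfactory neurons, was at 0.245 (si-FENDRR) and 0.225 FPKM (si-NC) in LM3, against 1.04 (si-FENDRR) and 0.938 FPKM (si-NC) in RBE (limma log2 difference of -0.69 ± 0.15 SE and adjusted p of 0.0241). It passed the filter only through 1 RBE library. S100A1, the S100 protein of heart muscle, was at 0.510 (si-FENDRR) and 1.39 FPKM (si-NC) in LM3, against 2.01 (si-FENDRR) and 1.28 FPKM (si-NC) in RBE, and did not pass (-0.46 ± 0.30 SE, adjusted p = 0.256 by limma).

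Most of the genes between the S100 genes of chromosome 1 were at or near 0. The stretch of 1309.9 kb between S100A11 and S100A9, which holds the genes of the cornified skin envelope, lists 46 coding genes, of which 0 reached 1 FPKM and 30 were at 0 in all libraries. Among the coding genes there FLG, the skin barrier protein filaggrin, had the highest value, at 0.217 and 0.173 FPKM in LM3 against 0.972 and 0.765 FPKM in RBE. Over the whole span from S100A10 to S100A1, 8 of the 9 named genes of chromosome 1 and 3 of 8 further S100 genes reached 1 FPKM. Outside the family 4 of 72 genes did, with 0 of the 46 coding ones, where 15930 of all 58174 listed genes did. AL162258.1, AL162258.2 and BX470102.1 were among those 4, and they share exon bases with S100A13, S100A1 or S100A6. The named genes were chosen with earlier results of these data known. Direction toward LM3 or RBE was not uniform along the cluster. S100A11, S100A6, S100A4 and S100A3 were higher in LM3, and S100A16 and S100A14 beyond them were higher in RBE. S100A5, which lies between S100A6 and S100A4, was also higher in RBE, but was weak and passed the filter only through 1 RBE library.

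**Figure D3:**
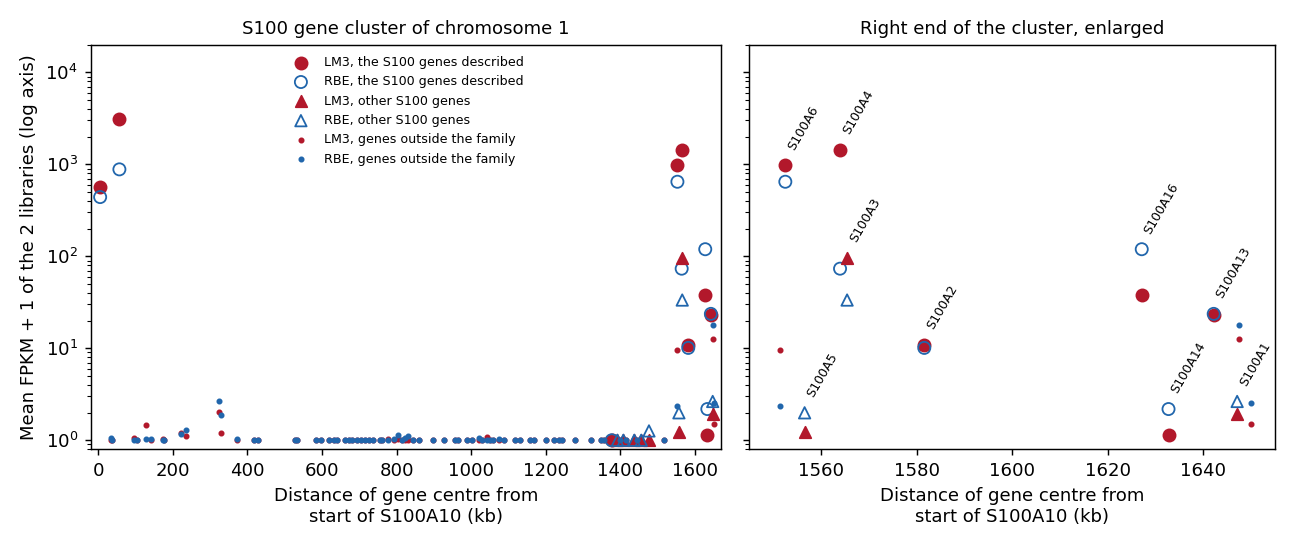
Mean FPKM + 1 of the 2 libraries of each line on a log axis, against distance of each gene's centre from the start of S100A10 in kb. The span between S100A11 and S100A9 holds 46 coding genes below 1 FPKM, and at the right end S100A4 and S100A6 are higher in LM3 while S100A16 and S100A14 are higher in RBE.

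Counts for S100 partners can be read against all genes tested, of which 32.3% were called higher in LM3 and 26.4% in RBE. Of the 9 tested genes of the annexin and plasminogen list, 1 was called higher in LM3 and 6 in RBE, with a median log2 difference of -0.77 (0.09 over all genes tested). ANXA2, the partner of S100A10, was at 865 and 652 FPKM in LM3, against 1306 and 1628 FPKM in RBE (limma log2 difference of -0.96 ± 0.21 SE and adjusted p of 0.0224). S100A10 and ANXA2 thus lay on opposite sides, S100A10 without passing. PLAU, the plasminogen activator urokinase, was at 22.6 and 23.1 FPKM in LM3 against 83.7 and 74.2 FPKM in RBE. Its receptor PLAUR was the 1 gene called higher in LM3, at 11.9 and 10.4 FPKM against 4.56 and 3.73 FPKM in RBE. ANXA11, ANXA7 and PLAT were also called higher in RBE, with log2 differences of -1.46, -1.04 and -0.77. ANXA1, the partner of S100A11, was at 164 and 133 FPKM in LM3 against 242 and 206 FPKM in RBE and was called (adjusted p = 0.0125 by limma). ANXA1 falls outside the rule for naming and was picked after its value was seen.

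Receptors of released S100 proteins covered a wide range of levels. AGER was at 0.573 and 1.08 FPKM in LM3 against 2.11 and 1.67 FPKM in RBE and did not pass (adjusted p = 0.0568 by limma). Of 6 receptors tested, 2 were called higher in LM3 and 1 in RBE, where 32.3% and 26.4% of all genes tested were. CD36, a scavenger receptor, was at 9.43 and 6.60 FPKM in LM3 against 0.0118 and 0 FPKM in RBE (adjusted p = 0.00144 by limma), and passed the filter only through LM3. BSG, or basigin, a receptor of S100A9, was abundant and higher in RBE, at 232 and 261 FPKM in LM3 against 344 and 381 FPKM. ALCAM was called higher in LM3 by a small margin (adjusted p = 0.0496 by limma).

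Among 17 intracellular targets, all tested, 2 were called higher in LM3 and 7 in RBE, with a median log2 difference of -0.34, where 32.3% and 26.4% of all genes tested were called. MDM2, the ubiquitin ligase of p53, had the largest called difference on the log2(FPKM + 1) scale, at 4.58 and 4.80 FPKM in LM3 against 27.8 and 20.2 FPKM in RBE (adjusted p = 0.00268 by limma). FGF1, a growth factor released in a complex with S100A13 and SYT1, was at 0 in both LM3 libraries and at 1.89 and 1.38 FPKM in RBE. SYT1 was at 1.98 and 4.46 FPKM in LM3 against 0.995 and 0.987 FPKM in RBE, and IL1A, which S100A13 also helps to release, was at 1.34 and 0.804 FPKM against 0.0381 and 0 FPKM. SYT1 and IL1A were the 2 called higher in LM3, and both passed the filter only through LM3, as FGF1 did only through RBE. SUGT1 and CAPZA1 were called higher in RBE, with log2 differences of -1.26 and -0.96. MYH9, the myosin heavy chain bound by S100A4, was at 66.2 and 73.2 FPKM in LM3 against 130 and 135 FPKM in RBE (adjusted p = 0.00512 by limma). MYH9, and likewise AGER and EZR, lay outside the rule for naming and were picked after their values were seen. EZR, the partner of S100P, was at 54.9 and 77.2 FPKM in LM3 against 69.0 and 75.2 FPKM in RBE and did not pass (adjusted p = 0.418 by limma).

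Other EF-hand proteins gave 2 of 10 called higher in LM3 and 6 in RBE, with a median log2 difference of -0.48, where 32.3% and 26.4% of all genes tested were called. CAPN2, the large subunit of m-calpain, was at 56.1 and 63.1 FPKM in LM3 against 225 and 216 FPKM in RBE. CALM3, which encodes the calcium sensor calmodulin, was higher in LM3 (log2 difference 0.68), and CALM2, which encodes the same protein, was higher in RBE (-0.70). CAPNS1 (-0.69) was higher in RBE and SRI (0.62) in LM3.

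Genes outside the family whose centred log2 values over the 4 libraries lay closest to each S100 gene were found by Euclidean distance. Nearest to S100P were UCHL1, at 271 and 320 FPKM in LM3 and 0 in RBE (distance 0.17), and LGALS4 (0.30). S100A4 was closest to the lincRNA AC120498.4 and to OAS2, S100A6 to HSF1 and LRFN3, and S100A11 to AL355303.1 and HOXC9. S100A16 was closest to RIC3 and SORL1, S100A14 to MAN2A1 and CYTOR, S100A10 to AC007191.1 and NPAS1, and S100A2 to FAM217B and UBLCP1. With 4 values per gene these are descriptions that rest mainly on the line. A match on this scale does not mean equal fold differences in FPKM, since 1 is added to each value. RIC3 was listed at 0 in LM3, while mean S100A16 there was 37.3 FPKM. AC120498.4 and AL355303.1 were listed at 0 in RBE, where S100A4 and S100A11 averaged 72.4 and 880 FPKM. Mean S100A14 in RBE was 8.21-fold that in LM3, while MAN2A1 had 9.19 and 8.85 FPKM (LM3) against 18.5 and 17.9 (RBE). HSF1 and S100A6 stood well above 1 FPKM throughout, where adding 1 matters little.

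Between transfections, none of the S100 genes passed. By limma over both lines, 0 of the 9 tested genes were called, where 0% of all 15930 genes were called, and 0 of the 9 had an unadjusted p under 0.05, where 4.12% of all genes did. The smallest adjusted p among the 9 was 0.959. Within LM3, 0 of the 9 differed at least 2-fold in FPKM + 1 (2.13% of all genes tested), and within RBE 0 of 9 did (1.75%). At 1.5-fold 1 gene, S100A13, did so within LM3 (7.97%) and within RBE (6.27%). With 1 library per transfection there is no test within a line, and a p that misses the threshold does not show that the transfections acted alike.

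**Figure D4:**
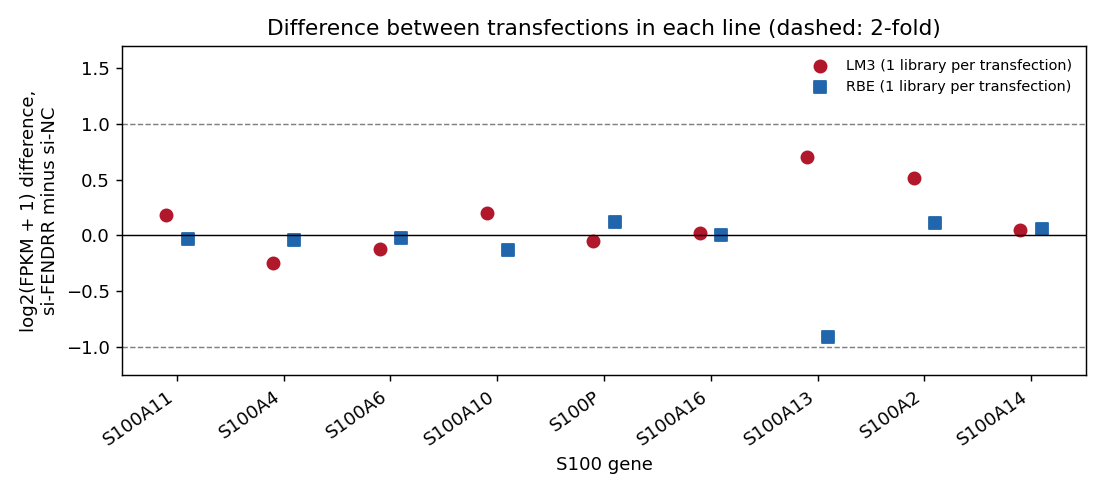
Difference in log2(FPKM + 1), si-FENDRR minus si-NC, for the 9 tested S100 genes, with 1 point per line and dashed lines at 2-fold. S100A13 lies at 0.71 in LM3 and -0.92 in RBE, S100A2 at 0.51 and 0.11, and the others lie between -0.25 and 0.21.

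The S100 genes with the widest gaps between the lines differed little in value between transfections. On the log2(FPKM + 1) scale S100P differed by -0.05 in LM3 and 0.12 in RBE, where it was close to no signal and this scale understates changes. S100A16 differed by 0.02 and 0.00461, and S100A11 by 0.19 and -0.03. S100A4 and S100A6 were lower with si-FENDRR in both lines (21.8% of all genes tested were), S100A4 by -0.25 in LM3 and -0.04 in RBE, and S100A6 by -0.13 and -0.03, where the RBE value of S100A6 turned to 0.00961 with library totals. S100A2, S100A14 and S100A16 were higher with si-FENDRR in both (26.9% of all genes tested), but for S100A16 the sign turned in both lines with median-of-ratios scaling and in LM3 with library totals. Over both lines the transfection differences were -0.14 ± 0.11 SE for S100A4 and 0.31 ± 0.16 SE for S100A2, each with an adjusted p of 0.959 by limma. S100A10, S100A11, S100A13 and S100P had opposite signs in the lines (47.1% of all genes tested), S100A10 with 0.21 in LM3 and -0.13 in RBE, although with library totals the RBE value of S100A11 turned to 0.00785. The rest of the S100 family did not pass either, S100A3 having the smallest unadjusted p at 0.0782 (0.26 ± 0.11 SE, adjusted p = 0.959 by limma).

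S100A13, which takes part in the release of proteins that lack a signal peptide, was the S100 gene that differed most between transfections, and in opposite directions. It was at 27.3 FPKM with si-FENDRR against 16.3 FPKM with si-NC in LM3. In RBE it was at 15.4 FPKM with si-FENDRR against 29.9 FPKM with si-NC, so the higher library was the si-FENDRR one in LM3 and the si-NC one in RBE. In log2 terms the differences were 0.71 and -0.92, each at least 1.5-fold, as for 117 of all 15930 genes (0.734%). Over both lines they cancelled (-0.10 ± 0.43 SE, adjusted p = 0.986 by limma), and the line difference was -0.02 ± 0.43 SE (adjusted p = 0.965). The difference between the lines in this response could not be tested, as the fit would leave no residual degree of freedom.

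S100A13 (ENSG00000189171, chromosome 1, 153618787 to 153631360, minus strand) was the only one of the 10 that shares exon bases with another listed gene on its strand. The noncoding model AL162258.1 holds 536 of its 2216 exon bases (24.2%), which are 53.9% of the exon bases of AL162258.1. AL162258.1 was at 2.85 FPKM with si-FENDRR against 20.2 FPKM with si-NC in LM3, while RBE had 12.4 against 21.8 FPKM. In LM3 it was low where S100A13 was high, while in RBE both were lower with si-FENDRR. S100A1 overlaps S100A13 on the opposite strand by 235 bases and had the opposite order in each line, at 0.510 against 1.39 FPKM in LM3 and at 2.01 against 1.28 FPKM in RBE. The values of S100A13 and S100A1 are uncertain for that reason, since the strand setting and the treatment of shared reads were not given in the sources used here, and the part of read assignment was not tested. Beside S100A13, ASNSD1 and RNF25 were the genes with the nearest pattern, ASNSD1 being at 11.9 against 6.66 FPKM in LM3 and 5.90 against 12.1 FPKM in RBE.

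**Figure D5:**
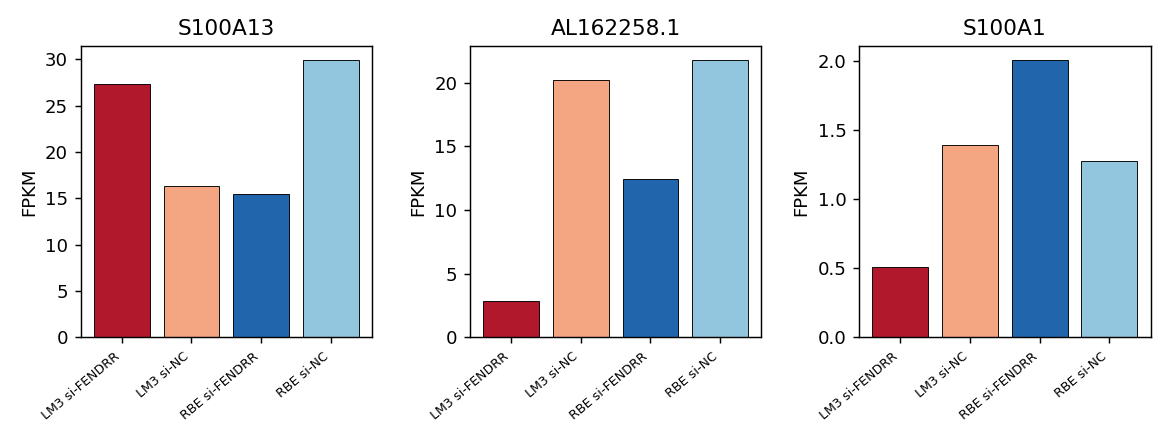
FPKM of S100A13, of AL162258.1, which shares exon bases with it on the same strand, and of S100A1, which overlaps it on the opposite strand, with 1 bar per library and axes from 0. S100A13 is at 27.3 and 16.3 FPKM in LM3, against 15.4 and 29.9 FPKM in RBE, and S100A1 is lower where S100A13 is higher within each line.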

How the data were processed

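RNA-seq libraries of LM3 and RBE cells with si-FENDRR or si-NC were used as 4 groups of 1 library. The deposited values are FPKM, per the file headers. FastQC and HISAT2 with build hg38 are named in the submitters' processing notes, while the quantifier, its annotation and its handling of shared reads were not given in the sources used here. All 4 single-library files hold the same values as the table. Depth is unknown: for only 11.9% to 18.2% of low values was the estimated read number within 0.02 of a whole number, so reads were not recovered and no interval or floor is given.

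Genes with at least 1 FPKM in any library (15930) were fitted with limma 3.58.1 (R 4.3.3) as log2(FPKM + 1), with terms for line and transfection, a trended prior variance and a Benjamini-Hochberg threshold of 0.05. Fold changes on this scale understate changes of low genes. The fit was also run on data simulated from its own fitted prior, which does not test its assumptions. Exon overlaps come from GENCODE 29, which holds 57836 of the listed identifiers, and sequences from RefSeq (GRCh38.p14). Named genes were all 10 genes, further S100 genes at 1 FPKM, up to 6 called genes per list and the 2 nearest in pattern. The genes and lists were chosen with earlier results of these data known. Alternatives covered pseudocount, filter, scaling, prior, model terms and omitted libraries. A fit of protein-coding genes only, and alternatives for LM3 against RBE within 1 transfection, were added after seeing the data. Protein sequences were not used here.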

Additional observations from a re-analysis of the deposited data

Results flagged for a closer look

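The S100 genes S100A13, S100A1 and S100A10 moved in opposite directions in the 2 lines by at least 0.1 on the log2(FPKM + 1) scale, and these differences between the lines were not tested, since each line has 1 library per transfection. S100A13 differed by 0.71 (si-FENDRR minus si-NC) in LM3 and by -0.92 in RBE. S100A1, which overlaps it on the opposite strand, differed by -0.66 in LM3 and by 0.40 in RBE. S100A10 differed by 0.21 in LM3 and by -0.13 in RBE. At any size, 4 of the 9 tested genes, which do not include S100A1, went opposite ways, against 47.1% of all genes tested. The share of all genes at 0.1 was not taken. Groups of 1 library do not allow a search for a library far from the rest.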

How the results depend on the processing

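Between the lines, S100P, S100A4, S100A11 and S100A16 kept their direction and their call under all alternatives run, and S100A14 under all but the filter on mean FPKM, which removed it. S100A6 lost its call at an adjusted p of 0.0606, 0.0809 and 0.0774 by limma, as given above. Without the transfection term, which serves as the replicate block, S100A10 passed at 0.0486 (log2 difference 0.36). That changed no other call of the 9 genes. Over all genes, 9348 were called, and 5573 to 6980 with 1 library left out. Fits of 3 libraries hold no transfection term, and without that term all 4 libraries gave 9643. The line difference of S100A2 turned to -0.00659 with median-of-ratios scaling and lay between -0.18 and 0.34 with 1 library left out. That of S100A13 turned to 0.00781 with library totals and lay between -0.48 and 0.43 with 1 library left out. These turns are within the error, and the cause was not tested. Median-of-ratios scaling gave 50.1% of called genes higher in LM3, against 55.1% as reported. The transfection difference turned to -8e-05 for S100A10 and -0.0235 for S100A16 with median-of-ratios scaling, and to -0.0126 for S100P with a pseudocount of 5. With a 1.5-fold rule, 1 gene (S100A13) differed within LM3 and 1 (S100A13) within RBE, and with si-NC alone 7 differed between the lines, against 4 at 2-fold. Depth limits what can be said of genes near 0 FPKM.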

Other observations

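S100PBP, which encodes a binding partner of S100P and is no S100 protein, was named after its values were seen. It was at 6.69 FPKM under si-FENDRR against 6.54 FPKM under si-NC in LM3, with 9.49 against 5.05 FPKM in RBE. BX470102.1, an antisense model that shares 23 exon bases with S100A6 on the opposite strand, was at 6.69 and 10.5 FPKM in LM3 against 1.54 and 1.19 FPKM in RBE, and was chosen in the same way. The pseudogene S100A11P1 was at 0.186 and 0.243 FPKM in LM3 and listed at 0 in RBE.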
